A study of Mus musculus with 8 samples.

Results

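Cholesterol synthesis and its control by SREBP2 were described at the transcript level in 27 genes, which were found by symbol among the 22063 genes of the deposited table. They comprise 18 enzymes of the pathway, 6 regulators of SREBP2 (Srebf2, Insig1, Insig2, Scap, Mbtps1 and Mbtps2) and 3 genes of sterol transport or uptake (Stard4, Mylip and Tmem97). The members were chosen by pathway role with their log2 fold changes and calls in the comparison below already known, and they do not cover every step of the pathway. These genes were part of a fit across all genes, and their values, folds, intervals and calls in it are given as a description and not as independent evidence. No p-value is given for them, and the list as a whole was not tested.

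RNA-seq was performed on 8 libraries, namely 4 controls and 4 that the labels mark as control plus tranilast, an anti-allergic small molecule given by mouth in this study. All were labelled as liver of wild-type mice, and the series design places both groups on a high-fat, high-cholesterol (HFHC) diet. The study's methods describe young adult male C57BL/6J mice, with tranilast or its sodium carboxymethylcellulose vehicle given daily over the later part of the feeding. The labels name no diet, no dose, no age and no batch, and do not say whether the libraries came from separate animals. The p-values below therefore set the group difference only against the spread between these libraries, which may be technical.

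The libraries held between 12053036 and 15618787 counts, and their TMM scaling factors lay between 0.956 and 0.965 for control and between 1.037 and 1.045 for tranilast, without overlap. The markers went against the label, since defining transcripts of liver were nearly absent, so that the label may not describe the cells these libraries came from. The 11 hepatocyte markers, among them Alb (serum albumin), summed to 0 to 6 counts per library, and 7 of them (Fga, Ahsg, Cyp3a11, Cyp2c29, Hamp, Cps1 and Tat) were at 0 in all 8 libraries. The 12 macrophage markers, led by Lyz2 (lysozyme), took a summed 9059 to 9601 CPM, or depth-scaled counts, in the controls, against 8843 to 9429 CPM with tranilast. Of these 12 markers, 2 were called higher in the comparison below (Adgre1 and Cd68) and 5 lower (Csf1r, Lyz2, Fcgr1, Itgam and Cd14). Aif1 was not called, and Mertk, C1qa, C1qb and C1qc were too low to be tested. Over all tested genes, 28.2% were called higher and 28.8% lower. The log2 fold changes (tranilast minus control) of the called markers lay between -1.42 (Fcgr1) and 0.21 (Adgre1), with Cd14 at -0.07. The part of these marker changes in the results below was not tested. Of the 5 markers of Kupffer cells, the resident macrophages of the liver, Clec4f, Vsig4 and Timd4 were at 0 in every library and the sum was 0 to 8 counts. Cholangiocyte, stellate cell, endothelial, T cell, B cell and neutrophil markers summed to at most 10, 41, 10, 1, 4 and 2 counts per library, respectively. The values below are thus those of libraries labelled as liver, and their cell source and their tie to the described mice were not settled here. In these bulk libraries, fewer cells of a type and less RNA per cell cannot be told apart.

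Cholesterol is built from acetyl-CoA by way of mevalonate, isoprenoid pyrophosphates, squalene and lanosterol, and most of the enzymes are transcribed under SREBP2, a membrane-bound transcription factor encoded by Srebf2. When the endoplasmic reticulum holds much sterol, INSIG proteins keep SREBP2 and its escort SCAP there. When sterol is low, SCAP carries SREBP2 to the Golgi, where the site-1 and site-2 proteases (Mbtps1 and Mbtps2) release the active fragment. Oxysterols also act through the nuclear receptor LXR, which induces Mylip.

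Promoter sequence was taken from RefSeq (GRCm38.p6) for 23 of the 27 genes, as the 250 bases before each annotated start, in 29 promoters. Sequences for Fdps, Fdft1, Sqle and Stard4 were not used here. Both strands were searched for the sterol regulatory element (TCACNCCAC), the CCAAT box bound by NF-Y (CCAAT), the GC box bound by Sp1 (GGGCGG) and the E-box (CACGTG), which had 0 overlapping matches with each other. The sterol regulatory element in these letters was present in 1 of 29 promoters, that of Hmgcs1, and in 1.05% of all 32851 mouse promoters of the same length. The CCAAT box was present in 19 of 29 promoters (65.5%) and in 33.8% of all promoters, or 36.2% of the promoters of tested genes. The GC box was present in 23 of 29 (79.3%), against 32.7% of all promoters and 58.5% of those of tested genes. The E-box was present in 5 of 29 (17.2%), against 6.02% and 8.56%. A match of letters is a description and not a binding site. Only these exact letters within 250 bases were searched, so that a promoter without a match is not shown to lack the element.

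Promoter stretches of 4 genes are shown, 5′ to 3′ on the strand of the gene, with the matches to the 4 motifs on either strand in capitals (ATTGG and CCGCCC are CCAAT and GGGCGG on the other strand), because these genes mark the ends of the range of values and the only match to the sterol regulatory element. Insig1 had the highest log2 fold change of the 27 genes, Mvd the highest among the enzymes with over 10 CPM, and Tmem97 was the more abundant of the pair, with Mylip, that had the lowest value. Each stretch stops before the first base that GENCODE annotates as transcribed.
Insig1, chr5:28071162-28071362, plus strand, 201 bases: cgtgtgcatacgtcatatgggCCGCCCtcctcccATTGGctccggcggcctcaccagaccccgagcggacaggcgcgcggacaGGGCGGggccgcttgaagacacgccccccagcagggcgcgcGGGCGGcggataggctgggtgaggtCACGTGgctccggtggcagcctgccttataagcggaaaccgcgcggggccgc
Hmgcs1, chr13:119690101-119690350, plus strand, 250 bases: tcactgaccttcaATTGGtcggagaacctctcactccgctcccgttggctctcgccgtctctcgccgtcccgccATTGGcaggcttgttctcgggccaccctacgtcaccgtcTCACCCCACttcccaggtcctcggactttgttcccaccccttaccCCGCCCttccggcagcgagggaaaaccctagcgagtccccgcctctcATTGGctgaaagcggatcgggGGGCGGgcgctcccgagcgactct
Mvd, chr8:122443423-122443672, minus strand, 250 bases: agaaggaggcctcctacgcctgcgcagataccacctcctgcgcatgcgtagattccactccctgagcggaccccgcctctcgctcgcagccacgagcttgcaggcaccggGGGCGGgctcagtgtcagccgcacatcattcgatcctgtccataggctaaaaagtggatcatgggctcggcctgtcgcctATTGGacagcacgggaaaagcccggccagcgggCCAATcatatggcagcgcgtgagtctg
Tmem97, chr11:78550778-78550985, minus strand, 208 bases: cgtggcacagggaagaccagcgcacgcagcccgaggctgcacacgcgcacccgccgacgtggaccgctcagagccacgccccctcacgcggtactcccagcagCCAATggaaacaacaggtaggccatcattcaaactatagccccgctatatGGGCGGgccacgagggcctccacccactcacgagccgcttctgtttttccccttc
In Hmgcs1 the sterol regulatory element began 137 bases before the RefSeq start, and 3 CCAAT boxes and 2 GC boxes lay around it. Insig1 had an E-box 101 bases before its start, with 3 GC boxes and 1 CCAAT box upstream of it. Mvd had 2 CCAAT boxes, 60 and 27 bases before the start, and 1 GC box. Tmem97, which was lower with tranilast, also had a CCAAT box and a GC box in the stretch shown, so that these letters were present in genes of either direction.

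The groups were compared with edgeR's quasi-likelihood test over 10770 genes, and a gene was called when its p-value, adjusted by the Benjamini-Hochberg method over these genes, was under 0.05. All 27 genes passed the filter on low counts. Of them, 19 were called higher in the tranilast group, 4 were called lower (Mbtps2, Mylip, Tmem97 and Srebf2, whose sign turned with library totals alone) and 4 were not called (Pmvk, Fdps, Ebp and Insig2). With library totals alone in place of the TMM factors, 22 were called higher, with Pmvk, Fdps and Ebp added so that all 18 enzymes were called, and 3 were called lower. Over all tested genes, 57.0% were called, 28.2% higher and 28.8% lower, and nothing is read from the larger share among the 27 genes because they were chosen with this contrast known. The 4 libraries of each group lay outside the range of the other for 22 of the 27 genes, against 49.8% of the tested genes. The median log2 fold change (tranilast minus control) of the 27 genes was 0.27, with a range from -0.45 to 0.67, and that of all tested genes was 0.0085. With library totals alone, the median of all tested genes moved to 0.125 and the share of higher genes among the calls moved from 49.5% to 70.9%. This change of scaling moves every gene by nearly the same amount. The median of the 27 genes therefore stays 0.26 above that of all genes by construction, which is no check on that gap. No member reached an absolute log2 fold change of 1.5, the limit named in the study's methods, which 120 of the 10770 genes passed.

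Levels within a gene are given below as CPM, the counts scaled to a common depth after correction of the library total by the TMM factor, in the order of replicates 1 to 4, and folds are those of the edgeR fit with their standard errors (SE, n = 4 in each group). Together the summed CPM of the 27 genes went from 2164 ± 13.7 (SD, n = 4) to 2449 ± 27.7 with tranilast, a ratio of 1.13. As a share of the library totals, without the TMM factors, they took 0.206% to 0.209% and 0.251% to 0.260% of the counts, a ratio of 1.23. The coefficient of variation within a group was under 10% in both groups for 25 of the 27 genes, the exceptions being Pmvk and Tm7sf2. The summed CPM of the mevalonate steps went from 515 ± 9.87 (SD, n = 4) to 608 ± 8.07 with tranilast, a ratio of 1.18. That of the squalene steps went from 223 ± 3.44 (SD, n = 4) to 285 ± 6.27, a ratio of 1.28, and that of the post-lanosterol steps from 396 ± 7.46 (SD, n = 4) to 498 ± 5.13, a ratio of 1.26. The sum of the regulators went from 818 ± 10.5 (SD, n = 4) to 868 ± 11.7, a ratio of 1.06, and that of Stard4, Mylip and Tmem97 from 212 ± 2.72 (SD, n = 4) to 190.4 ± 4.56, a ratio of 0.899. With the TMM factors the ratio differed in size between the enzyme groups and the regulators, and was under 1 for the last group. In the control group Srebf2, at 350 CPM, was the largest part of the regulator sum. Tmem97, at 110 CPM, was that of the last group, in which Stard4 rose 1.17-fold. The sums by step were not made with library totals alone, and their ratios depend on the scaling.

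**Figure D1:**
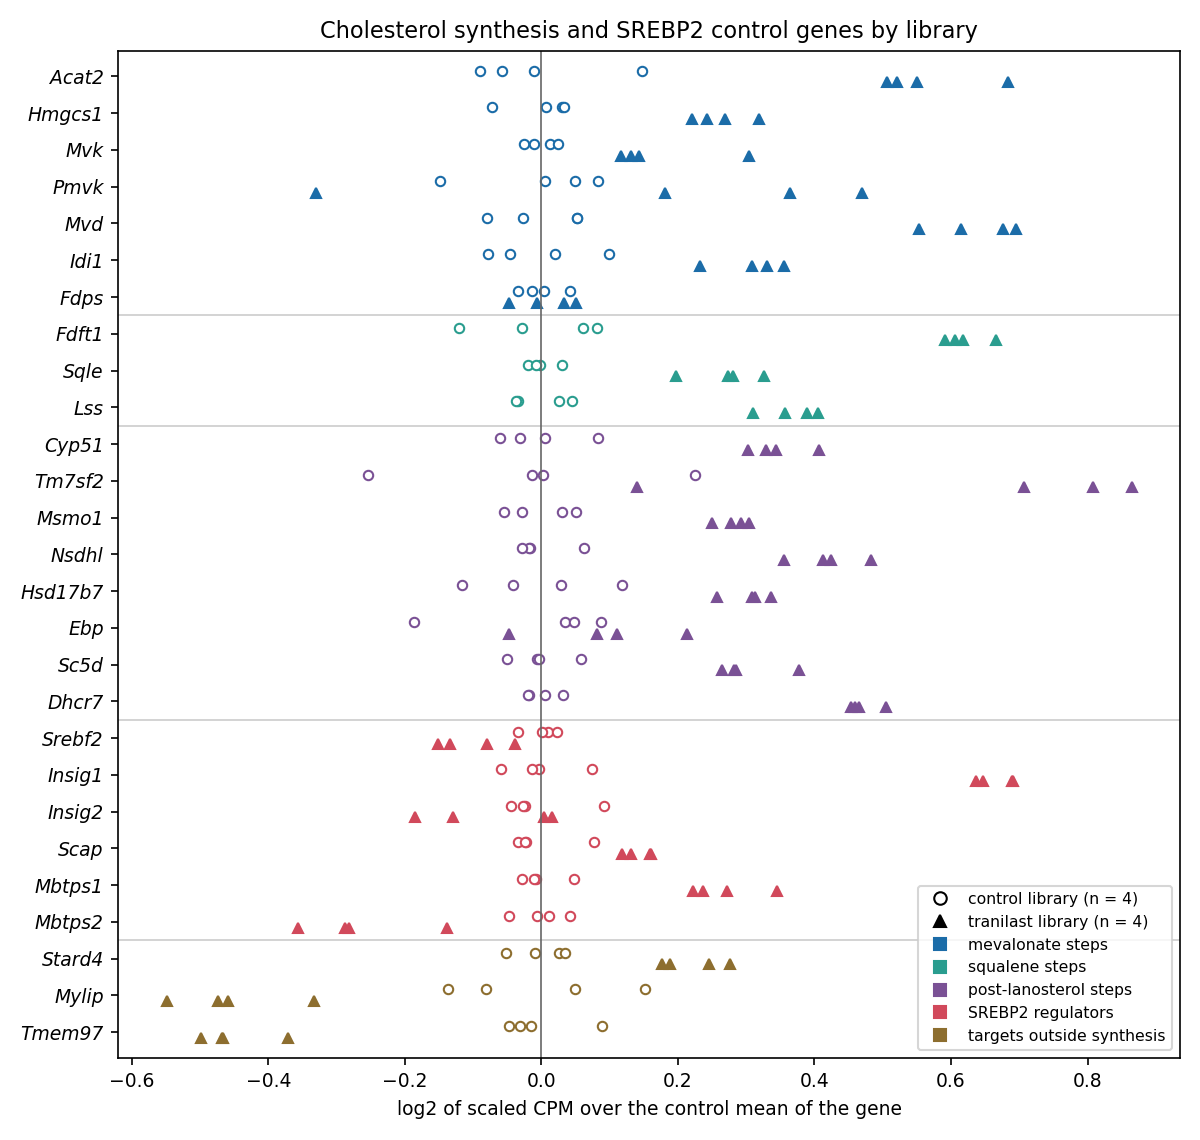
Each row is a gene, and each symbol is a library, plotted as the log2 of its CPM over the mean CPM of the 4 control libraries (circles, control; triangles, tranilast; colours, pathway step). The triangles lie to the right of all circles for 14 of the 18 enzymes, to the left of all circles for Srebf2, Mbtps2, Mylip and Tmem97, and overlap the circles for Pmvk, Fdps, Tm7sf2, Ebp and Insig2 (with library totals alone the signs of Srebf2 and Insig2 turned).

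The mevalonate steps comprise 7 genes on chromosomes 3, 5, 8, 13 and 17, of which 5 were called higher and 2 were not called, with a median log2 fold change of 0.26. Acat2 (chr17:12942890-12960747, GRCm38), the cytosolic thiolase that joins 2 molecules of acetyl-CoA, was measured at 37.9, 38.8, 44.7 and 40.1 CPM in the control libraries and 59.1, 57.3, 57.9 and 64.8 CPM in the tranilast libraries. All 4 tranilast libraries were above all 4 control libraries, by a log2 fold change of 0.57 (SE 0.0592). Its near copy Acat3 was listed at 0.349 and 0.427 library-size CPM in the control and tranilast groups. Hmgcs1 (chr13:119690379-119708260), which adds the next acetyl group to give HMG-CoA, was measured at 97.2, 98.8, 99.0 and 92.0 CPM (control) and 114, 117, 121 and 113 CPM (tranilast). The groups did not overlap, and the difference of 0.26 (SE 0.0393) was less than that of Acat2.

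Mevalonate is then phosphorylated by Mvk and Pmvk and decarboxylated by Mvd. Mvk was measured at 20.9, 21.5, 21.1 and 21.6 CPM in the control group and 26.3, 23.3, 23.1 and 23.5 CPM in the tranilast group, a log2 fold change of 0.18 (SE 0.0711). Tranilast replicate 1 stood apart from the other 3 tranilast libraries. Without it the log2 fold change of Mvk was 0.13 and the gene was no longer called, and the call was also lost without each of the 4 control libraries. Pmvk was measured at 14.9, 16.5, 17.0 and 17.4 CPM (control) and 18.7, 22.8, 13.1 and 21.2 CPM (tranilast), and tranilast replicate 3 lay below every control library while the other 3 tranilast libraries lay above them. The log2 fold change of Pmvk was 0.21 (SE 0.126) with an interval from -0.06 to 0.47, and the gene was called without tranilast replicate 3, at 0.34, and with library totals alone, at 0.32. In Mvd (chr8:122433601-122443422, minus strand) the spread was small beside the difference, with 28.0, 30.7, 29.1 and 30.7 CPM in the control group and 43.5, 47.3, 48.0 and 45.4 CPM in the tranilast group. Every tranilast library was above every control library, and the log2 fold change was 0.63 (SE 0.0569), or 1.55-fold.

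Idi1, the isomerase that interconverts the isoprenoid units, was measured at 143, 135, 129 and 126 CPM in the control group and 168, 171, 165 and 157 CPM in the tranilast group. The groups did not overlap and the log2 fold change was 0.31 (SE 0.0416). Idi2, its paralog, was listed at 0 in both groups. Fdps, which condenses these units to farnesyl pyrophosphate, the last precursor shared with the non-sterol branch, differed little with the TMM factors. It was measured at 178, 182, 176 and 173 CPM (control) and 171, 181, 176 and 183 CPM (tranilast), and the libraries of the groups were interleaved. The log2 fold change of Fdps was 0.01 (SE 0.0337), with a 95% interval from -0.06 to 0.08, and its sign turned when control replicate 4 or tranilast replicate 4 was left out. With library totals alone it was 0.12, and on the deposited FPKM values 0.13, and the gene was called higher in both, so that its call depends on the scaling. Fdps shares 1124 exon bases on the same strand with Gm43738, a gene model that was not used here, so that reads may be divided between them.

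The 3 squalene steps were all called higher, with a median log2 fold change of 0.37. Fdft1 (chr14:63145150-63179578, minus strand), squalene synthase, commits farnesyl pyrophosphate to sterols. It was measured at 34.3, 36.5, 39.4 and 38.9 CPM in the control group and 59.1, 57.2, 56.1 and 56.8 CPM in the tranilast group. The 4 tranilast libraries were close to each other and all above the control libraries, with a log2 fold change of 0.62 (SE 0.0531), or 1.54-fold. Fdft1 shares 774 exon bases on the opposite strand with Ctsb, a cathepsin gene at 1616 CPM in the control group and 2111 CPM in the tranilast group (library-size CPM), whose log2 fold change was 0.27. Whether counting used the strand is not given in the sources used here, and the share of Ctsb reads in the Fdft1 values cannot be told apart.

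Sqle, the epoxidase that opens the oxygen-dependent part of the pathway, was measured at 129, 127, 128 and 132 CPM in the control group and 162, 156, 157 and 148 CPM in the tranilast group, a log2 fold change of 0.27 (SE 0.0357). Lss, which cyclises the epoxide to lanosterol, was measured at 54.8, 57.9, 57.2 and 54.7 CPM (control) and 71.9, 74.3, 69.6 and 73.5 CPM (tranilast), a log2 fold change of 0.37 (SE 0.0442). For both genes the lowest tranilast library was above the highest control library. The increment was smaller in Sqle and Lss than in Fdft1, and these 3 increments were not compared by a test.

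The post-lanosterol steps comprise 8 genes, of which 7 were called higher and Ebp was not called, with a median log2 fold change of 0.32. Cyp51, the lanosterol demethylase, was measured at 89.4, 85.4, 94.3 and 87.1 CPM in the control group and 113, 118, 112 and 109.9 CPM in the tranilast group, a log2 fold change of 0.35 (SE 0.0416) without overlap. Tm7sf2, a sterol reductase of the following step, had the lowest level of the 27 genes, with 30 to 41 counts in the control libraries and 38 to 67 in the tranilast libraries. In CPM these were 2.92, 2.50, 2.47 and 2.09 for control and 4.54, 2.75, 4.07 and 4.37 for tranilast, so that tranilast replicate 2 fell within the control range. Its log2 fold change of 0.66 (SE 0.207) had an interval from 0.22 to 1.09, the widest of the 27 genes. Tm7sf2 also shares 532 exon bases on the same strand with Vps51, which was measured at 42.3 and 49.6 library-size CPM in the control and tranilast groups, with a log2 fold change of 0.12. The part of shared reads in the Tm7sf2 value was not tested. Cyp51 shares 166 exon bases on the opposite strand with Akap9, and Hmgcs1, Idi1, Lss and Scap share exon bases with gene models on the opposite strand that were not used here.

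Demethylation at carbon 4 of the sterol ring is carried out by Msmo1, Nsdhl and Hsd17b7 in turn. Msmo1 was measured at 81.3, 87.5, 86.2 and 82.8 CPM in the control group and 102, 104, 100.4 and 103 CPM in the tranilast group, a log2 fold change of 0.28 (SE 0.0393). Nsdhl, on chromosome X, was measured at 36.6, 34.7, 34.6 and 34.4 CPM (control) and 47.1, 46.7, 44.9 and 49.0 CPM (tranilast), a log2 fold change of 0.42 (SE 0.0517). Hsd17b7 was measured at 62.9, 59.2, 56.4 and 53.5 CPM (control) and 69.3, 72.0, 73.2 and 71.8 CPM (tranilast), a log2 fold change of 0.30 (SE 0.0506). None of these 3 enzymes showed overlap between the groups, and their folds lay between 1.21 and 1.34.

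The sterol isomerase Ebp, the desaturase Sc5d and the reductase Dhcr7 act near the end of the pathway. Ebp, also on chromosome X, was measured at 25.7, 31.1, 30.01 and 30.3 CPM in the control group and 28.3, 33.9, 31.6 and 31.0 CPM in the tranilast group. Its groups overlapped, and its log2 fold change was 0.09 (SE 0.0738) with an interval from -0.06 to 0.25. With library totals alone it was 0.21, and on FPKM 0.20 and 0.21 with 1 and 0.1 added, and Ebp was called higher in these fits. Sc5d was measured at 49.8, 49.9, 52.1 and 48.3 CPM (control) and 60.9, 60.1, 64.9 and 60.8 CPM (tranilast), a log2 fold change of 0.30 (SE 0.0471) without overlap. Dhcr7 (chr7:143823145-143848410) was measured at 49.0, 48.1, 47.3 and 47.3 CPM (control) and 65.7, 65.9, 66.2 and 68.1 CPM (tranilast), a log2 fold change of 0.47 (SE 0.0437). The groups did not overlap, and the spread within them was small, with SDs of 0.803 CPM in the control group and 1.08 CPM in the tranilast group.

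**Figure D2:**
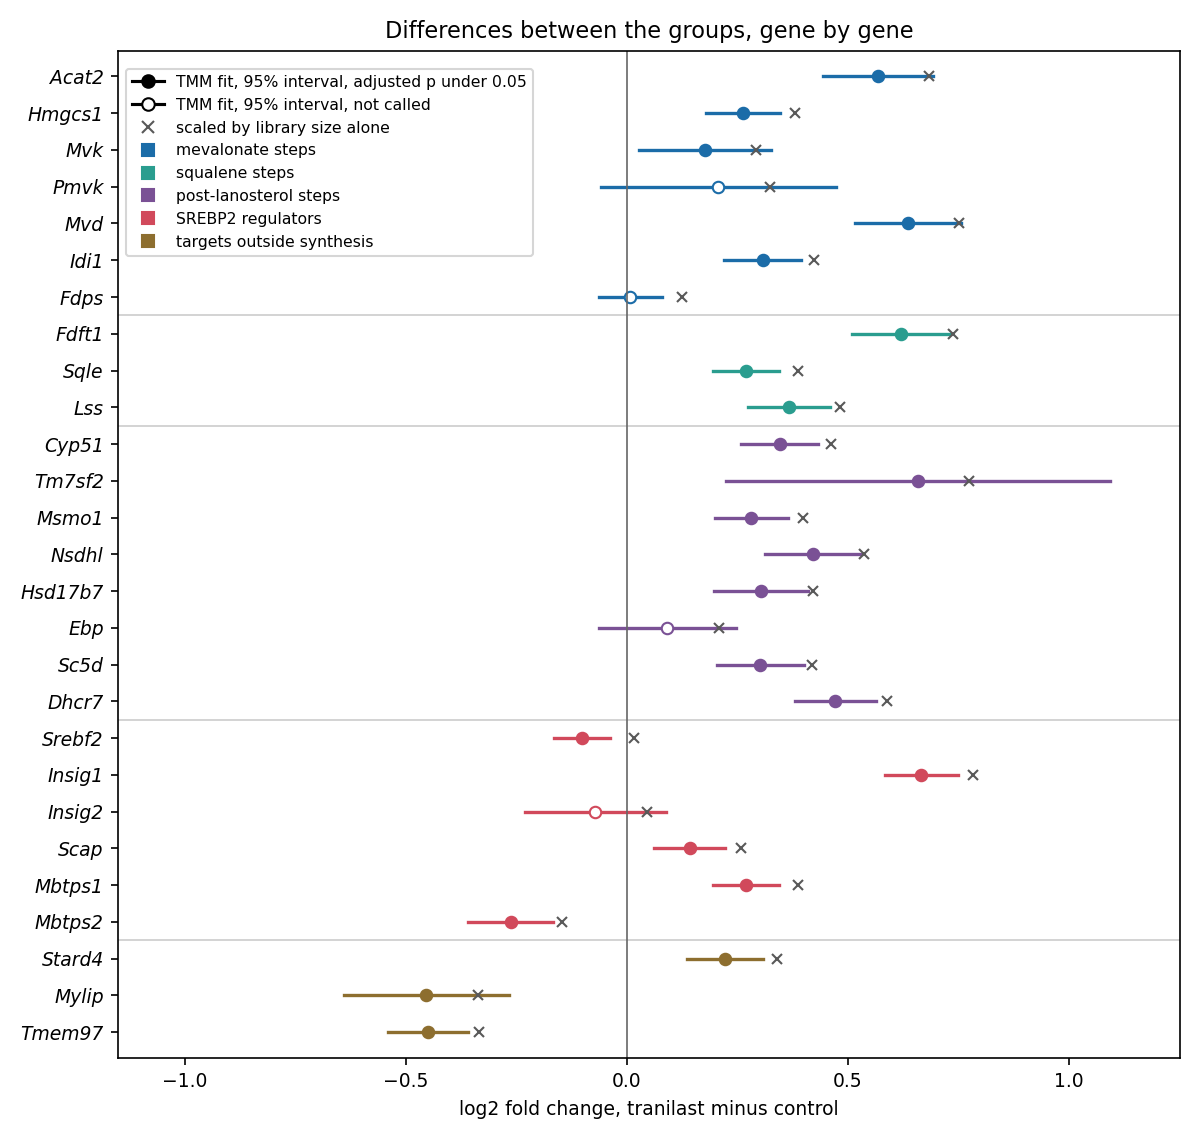
Log2 fold change of each gene (tranilast minus control) in the TMM-scaled fit with its 95% interval (filled, called; open, not called), and with library totals alone (crosses). Intervals of 15 of the 18 enzymes lie above 0, those of Pmvk, Fdps, Ebp and Insig2 include 0, and the crosses of Srebf2 and Insig2 lie to the right of 0 while their TMM values lie to the left.

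Among the 6 regulators, 3 were called higher (Insig1, Scap and Mbtps1), 2 were called lower (Mbtps2, and Srebf2, whose sign turned with library totals alone) and Insig2 was not called, with a median log2 fold change of 0.04. Srebf2 (chr15:82147181-82205379), which encodes SREBP2 itself, was measured at 353, 342, 356 and 351 CPM in the control group and 316, 341, 332 and 319 CPM in the tranilast group. The lowest control library (342 CPM) and the highest tranilast library (341 CPM) nearly met and overlapped with library totals alone, and the log2 fold change was -0.10 (SE 0.0301) with the TMM factors but 0.02 with library totals alone and 0.06 on the deposited FPKM values, so that its direction depends on the scaling. Srebf2 was called higher under none of the alternatives run, whereas 15 of the 18 enzymes were called higher in the TMM-scaled fit.

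Insig1 (chr5:28071363-28078662), the anchor of SCAP that is itself a transcriptional target of SREBP2, had the highest log2 fold change of the 27 genes. It was measured at 88.3, 83.6, 80.5 and 83.1 CPM in the control group and 130.4, 135, 135 and 131 CPM in the tranilast group. The lowest tranilast library was at 130.4 CPM and the highest control library at 88.3 CPM, and the log2 fold change was 0.67 (SE 0.0389), or 1.59-fold. Insig2, its paralog with the same anchoring role, was measured at 21.7, 21.4, 21.7 and 23.5 CPM (control) and 20.2, 19.4, 22.1 and 22.3 CPM (tranilast). Its groups overlapped, and its log2 fold change was -0.07 (SE 0.0756) with the TMM factors and 0.05 with library totals alone. Per transcript length Insig1 was the more abundant paralog in the control group, with 29.9 ± 1.24 FPKM (SD, n = 4) for Insig1 and 9.91 ± 0.759 FPKM for Insig2, and in the tranilast group, with 51.3 ± 1.06 and 10.2 ± 2.42 FPKM.

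Scap, the escort, was measured at 104, 103, 112 and 104 CPM in the control group and 115, 118, 118 and 116 CPM in the tranilast group, a log2 fold change of 0.14 (SE 0.0379). Mbtps1, the site-1 protease that makes the first cut in SREBP2, was measured at 149.9, 152, 152 and 158 CPM (control) and 180.1, 185, 178 and 194 CPM (tranilast), a log2 fold change of 0.27 (SE 0.0355). Neither gene showed overlap between the groups. Mbtps2 (chrX:157535371-157598715, minus strand), the site-2 protease of the second cut, differed in the other direction, with 106, 99.6, 102 and 104 CPM in the control group and 93.4, 84.3, 80.3 and 84.6 CPM in the tranilast group. The groups did not overlap, and the log2 fold change of Mbtps2 was -0.26 (SE 0.0458), so that the 2 proteases of the same cleavage sequence had opposite signs, which held with library totals alone (0.39 for Mbtps1 and -0.15 for Mbtps2), although the groups then overlapped in Mbtps2. Mbtps2 shares 2867 exon bases on the same strand with Yy2, which was measured at 5.18 and 4.18 library-size CPM in the control and tranilast groups, with a log2 fold change of -0.44. The part of shared reads in the Mbtps2 value was not tested.

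Stard4, Mylip and Tmem97 act on sterol movement and uptake and not on synthesis. Stard4, a soluble sterol carrier, was measured at 83.1, 81.0, 83.6 and 78.7 CPM in the control group and 92.9, 96.7, 92.2 and 98.8 CPM in the tranilast group, a log2 fold change of 0.22 (SE 0.0408) without overlap. Mylip (chr13:45389742-45412022), the LXR-induced E3 ubiquitin ligase that lowers lipoprotein uptake, was measured at 18.2, 22.2, 20.7 and 18.9 CPM (control) and 14.6, 13.7, 15.9 and 14.4 CPM (tranilast). All 4 tranilast libraries were below all 4 control libraries, with a log2 fold change of -0.45 (SE 0.0889), or 0.730-fold. Tmem97 (chr11:78541817-78550777, minus strand), the sigma-2 receptor and a partner of the lysosomal cholesterol transporter NPC1, was measured at 108, 107, 109 and 117 CPM (control) and 79.7, 85.2, 78.0 and 79.7 CPM (tranilast). The groups did not overlap and the log2 fold change was -0.45 (SE 0.0432), or 0.732-fold. Tmem97 is commonly counted among the genes that SREBP2 induces, and its difference was opposite in sign to those of Insig1, Stard4 and 15 enzymes, including with library totals alone (-0.33).

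Levels between genes were compared per transcript length, in the FPKM values of the authors. In the control group Fdps was highest at 138 ± 3.0 FPKM (SD, n = 4), followed by Tmem97 at 77.0 ± 3.48, Srebf2 at 66.9 ± 1.44, Idi1 at 49.4 ± 3.06 and Sqle at 45.0 ± 0.788 FPKM. The SDs of neighbours in this order did not overlap. The most abundant enzyme, Fdps, was also the enzyme with the smallest log2 fold change in the TMM-scaled fit. At the low end stood Tm7sf2 at 1.84 ± 0.338 FPKM, Mylip at 6.60 ± 0.454 FPKM and Insig2 at 9.91 ± 0.759 FPKM. In the tranilast group Fdps was at 150.2 ± 5.21 FPKM, and Tmem97, at 61.0 ± 2.49 FPKM, was no longer above Srebf2 (69.7 ± 3.56 FPKM) or Idi1 (66.3 ± 2.97 FPKM), whose values lay within 1 SD of each other.

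**Figure D3:**
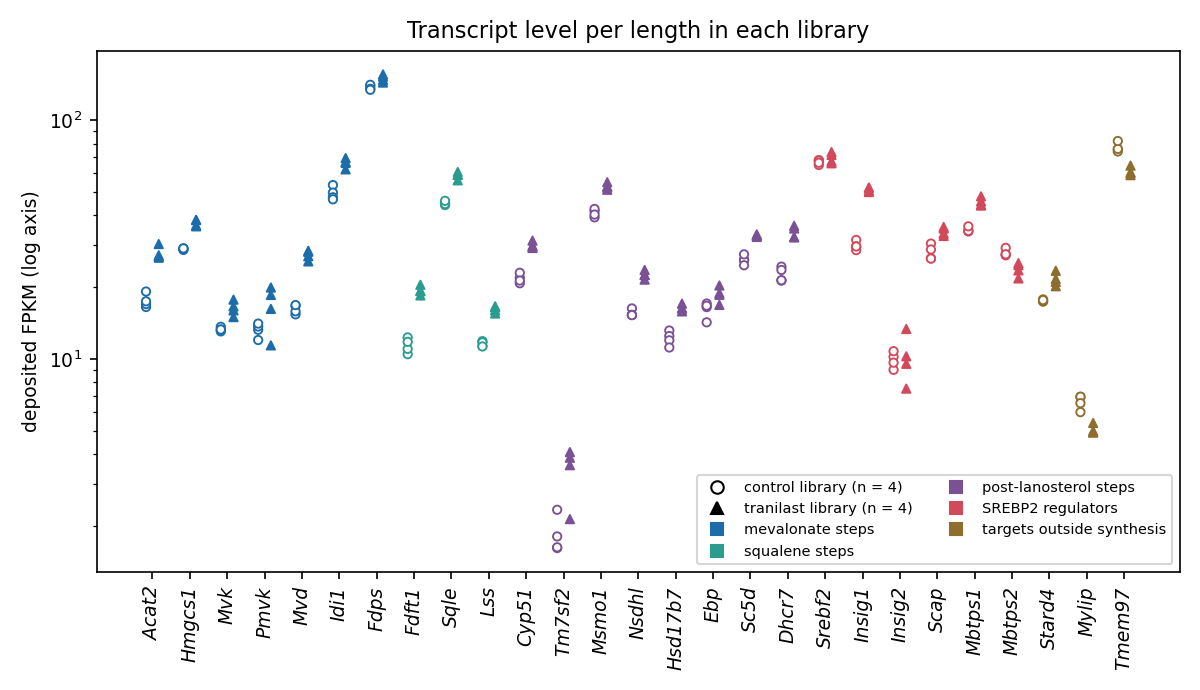
Deposited FPKM (log axis) of the 27 genes in each library, with circles for control and triangles for tranilast and colours by pathway step. Fdps lies highest at a mean of 138 FPKM in the control group and Tm7sf2 lowest at 1.84 FPKM, and the order of Tmem97 and Idi1 is turned between the groups.

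Other genes of sterol metabolism were taken from 5 lists made by pathway role, with 66 tested genes in all. Of these, 21 were called higher and 21 lower, with a median log2 fold change of 0.0082, beside 28.2% and 28.8% over all tested genes. With library totals alone the numbers were 35 and 12. The 5 lists were chosen with earlier results of these data known. From each list, the called genes with the largest absolute log2 fold change are named below, and Srebf1 and Soat1 whatever their values. For genes named by that rule, an adjusted p-value under the threshold was a condition of being named. The adjusted p-values below are therefore given as a description and not as independent evidence.

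Among 10 tested accessory enzymes and suppliers of acetyl-CoA, 5 were higher and 3 lower, with a median of 0.14. Acss2, which makes cytosolic acetyl-CoA from acetate, was measured at 11.2, 10.6, 12.4 and 11.3 CPM in the control group and 20.9, 21.8, 22.3 and 19.8 CPM in the tranilast group. The groups were well separated, with a log2 fold change of 0.90 (SE 0.0871) and an edgeR adjusted p of 8.37e-08. Aacs, which makes acetoacetyl-CoA from the ketone body acetoacetate, rose from 46.3 ± 2.76 to 70.0 ± 4.43 CPM (log2 fold change 0.60, SE 0.0566, edgeR adjusted p = 6.19e-08). Lbr, the lamin B receptor, catalyses the same sterol reduction as Tm7sf2. It fell from 231 ± 7.98 to 179 ± 2.85 CPM, a log2 fold change of -0.37 (SE 0.0330) with an edgeR adjusted p of 2.73e-08, and at 70.1 ± 11.9 FPKM in the control group it was far more abundant per length than Tm7sf2, at 1.84 ± 0.338 FPKM. The transcripts of these 2 reductases thus differed in opposite directions, within the limits given above for Tm7sf2 (few counts, overlapping groups and exon bases shared with Vps51).

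In sterol movement and esterification, 8 of 14 tested genes were higher and 4 lower, with a median of 0.16. Nceh1, a hydrolase of stored cholesteryl esters, was measured at 44.7, 47.2, 43.7 and 41.9 CPM in the control group and 100.1, 102, 96.8 and 103 CPM with tranilast. The log2 fold change of 1.18 (SE 0.0462), or 2.27-fold, was the highest among the 66 genes (edgeR adjusted p = 2.71e-13). Soat1, which esterifies cholesterol and so opposes Nceh1, was measured at 292, 292, 288 and 284 CPM (control) and 237, 232, 234 and 226 CPM (tranilast), and it fell by 0.31 on the log2 scale (SE 0.0286, edgeR adjusted p = 3.48e-08). The esterifying and the hydrolysing enzyme were both without overlap between groups and opposite in sign. Osbpl2 (log2 fold change 0.49, SE 0.0691, edgeR adjusted p = 9.86e-06) and Osbpl8 (0.38, SE 0.0360, edgeR adjusted p = 5.66e-08), lipid transfer proteins of the oxysterol-binding family, rose.

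Among 15 factors that retain, escort or degrade proteins of the SREBP pathway, 4 were higher, 3 lower and 8 not called, with a median of 0.01. With library totals alone 8 were higher and 1 lower, with a median of 0.13. Rnf145, a sterol-responsive ubiquitin ligase of the endoplasmic reticulum, was measured at 123, 126, 128 and 133 CPM in the control group and 76.3, 76.5, 77.1 and 76.5 CPM in the tranilast group. It fell by 0.74 on the log2 scale (SE 0.0385, edgeR adjusted p = 1.72e-11), the lowest value of the 66 genes, and like Mylip it is a known target of LXR. Paqr3, a Golgi anchor for SCAP and SREBP, rose from 7.76 ± 0.308 to 11.9 ± 0.806 CPM (log2 fold change 0.62, SE 0.106, edgeR adjusted p = 7.68e-05), and Usp20, a deubiquitinase, from 29.0 ± 2.21 to 36.9 ± 1.29 CPM (0.34, SE 0.0646, edgeR adjusted p = 0.000182).

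The non-sterol isoprenoid branch, which draws on farnesyl pyrophosphate for prenylation, dolichol and ubiquinone, had 3 higher, 5 lower and 10 genes not called among 18, with a median of -0.02 that turned to 0.09 (9 higher, 3 lower) with library totals alone. Rabggtb, a subunit of the Rab prenyltransferase, fell from 55.8 ± 2.75 to 42.0 ± 2.18 CPM (log2 fold change -0.41, SE 0.0538, edgeR adjusted p = 3.96e-06). Pdss1, which builds the ubiquinone side chain, fell from 17.4 ± 1.66 to 13.3 ± 0.514 CPM (-0.39, SE 0.0915, edgeR adjusted p = 0.00147). Fntb, a farnesyltransferase subunit, fell from 22.6 ± 2.42 to 17.7 ± 2.14 CPM (-0.36, SE 0.0976, edgeR adjusted p = 0.00453), and on FPKM it kept its sign and was no longer called. The sterol and non-sterol arms beyond Fdps were not compared by a test.

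SREBP1 and its fatty acid targets, the sister arm of the SREBP system, had 1 gene higher, 6 lower and 2 not called among 9, with a median of -0.12. With library totals alone 2 were higher and 3 lower and the median was -0.0068, so that the shift of this list depends on the scaling. Srebf1 was measured at 196, 181, 186 and 189.6 CPM in the control group and 164, 169, 160.1 and 160.0 CPM in the tranilast group, a log2 fold change of -0.20 (SE 0.0350) with an edgeR adjusted p of 8.36e-05. The groups did not overlap with the TMM factors. With library totals alone the Srebf1 groups overlapped, and the log2 fold change was -0.085. Scd2, a fatty acid desaturase, fell from 1897 ± 26.5 to 1474 ± 30.4 CPM (log2 fold change -0.36, SE 0.0210, edgeR adjusted p = 6.54e-11), and Elovl6, an elongase, from 59.9 ± 4.83 to 48.9 ± 2.96 CPM (-0.30, SE 0.0609, edgeR adjusted p = 0.000443). On the FPKM values Srebf1 and Elovl6 kept their sign and were no longer called.

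**Figure D4:**
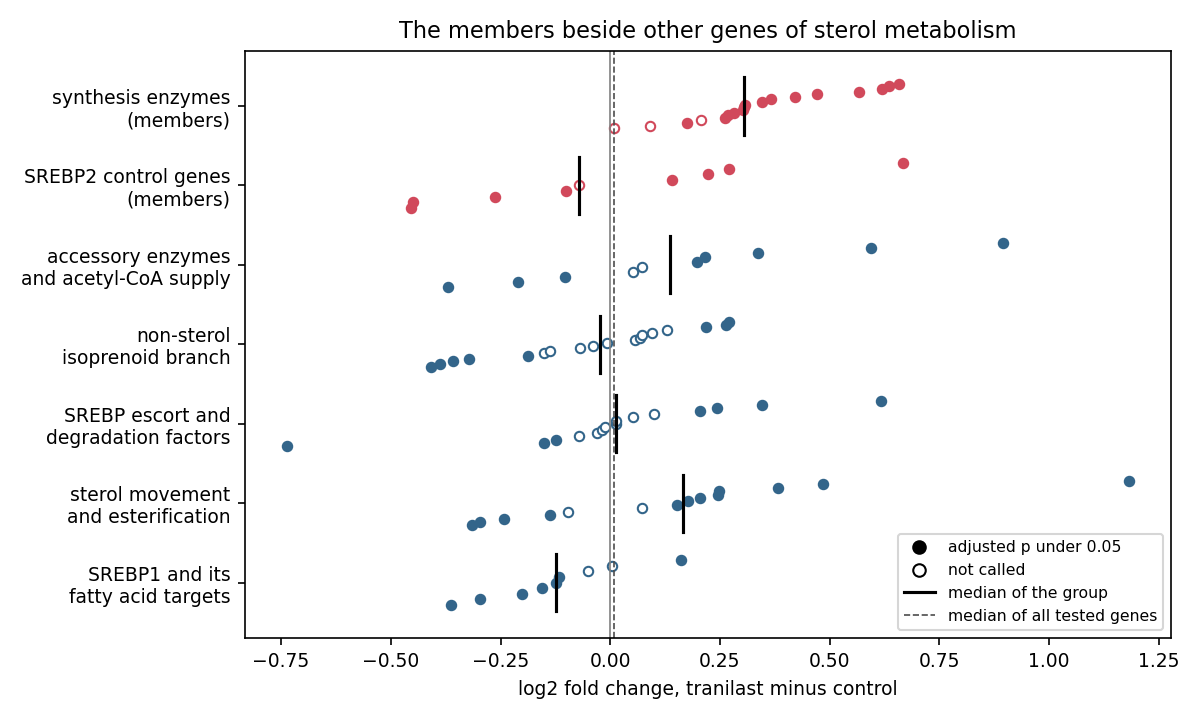
Log2 fold change (tranilast minus control) of the 27 genes in the upper 2 rows and of the 66 other tested genes in 5 rows, with a bar at the median of each row and a dashed line at the median of all tested genes. The median of the 18 enzymes is 0.31, that of the accessory enzymes 0.14 and that of the SREBP1 list -0.12, and Nceh1 lies farthest to the right at 1.18. With library totals alone the medians of the accessory enzymes and the SREBP1 list were 0.25 and -0.0068.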

How the data were processed

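The authors deposited 1 table of 22063 mouse genes with, for each of 8 libraries, an estimated count of reads per gene, which need not be whole (87.4% to 89.7% of the values above 0 were), and an FPKM value, in which the authors had normalized the reads for transcript length and depth. The aligner, the counting tool, the genome build and the strand setting are not given in the sources used here. Libraries were paired-end and made after poly-A enrichment, by the study's methods.

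Estimated counts were rounded to whole numbers, filtered with filterByExpr by group (10770 genes left) and scaled by TMM. Groups, taken from the sample labels, were compared in edgeR 4.0.16 (R 4.3.3) by the quasi-likelihood test with Benjamini-Hochberg adjustment over all tested genes and no covariate. The common coefficient of variation between libraries in this fit was 5.09%. Standard errors were derived as the absolute log2 fold change of a gene over the square root of its F statistic in this fit. The 95% intervals were built from these errors with the t distribution, so that both restate the test and add nothing to it. Where a gene had no count, up to 3 counts remain possible (0.192 to 0.249 CPM in these libraries), a limit for counting error only. FPKM values were used only to compare levels between genes and in an alternative fit.

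The 27 genes, the 5 lists of other genes and the 9 lists of cell type markers were chosen with earlier results of these data known. From each list of other genes, the 3 called genes with the largest absolute log2 fold change were named, and Srebf1 and Soat1 whatever their values. Coordinates and overlaps of exons are those of GENCODE M21 on GRCm38, matched by Ensembl identifier, and the counts do not separate reads shared by overlapping genes or paralogs. Promoters are from RefSeq (GRCm38.p6).

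Alternatives were RLE, upper-quartile and library-size scaling, DESeq2 1.42.0, limma-voom (limma 3.58.1), limma trend on log2 FPKM plus 1 or plus 0.1, a stricter filter (10 or more counts in all libraries) or none, a block for the replicate number, omission of each library, and a limit of 1.5 on the absolute log2 fold change. The code was tested on simulated data. Python 3.11.15, pandas 2.3.3, numpy 2.4.6 and matplotlib 3.10.9 were also used.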

Additional observations from a re-analysis of the deposited data

Results flagged for a closer look

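Within each group of 4 libraries, the CPM of each of the 27 genes was checked for a library that lay apart by Dixon's ratio of its gap to the nearest other library over the range of the group, at the 95% critical value. This held in 4 of 54 groups, and chance would give about 2.7. Mvk was at 26.3 CPM in tranilast replicate 1 and between 23.1 and 23.5 CPM in the other 3 tranilast libraries. Nsdhl was at 36.6 CPM in control replicate 1, with the other control libraries between 34.4 and 34.7 CPM. Insig2 was at 23.5 CPM in control replicate 4 and at 21.4 to 21.7 CPM in the others. Scap was at 111.6 CPM in control replicate 3 and at 103 to 104 CPM in the others. These 4 values came from 4 different libraries, and of the 4 genes Mvk lost its call when the library that lay apart was left out. Pmvk in tranilast replicate 3, at 13.1 CPM, did not pass this limit although it lay below every control library.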

How the results depend on the processing

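Of the 27 genes, 21 kept their direction and their side of the threshold under all 18 alternatives with no fold limit. Srebf2 turned from -0.10 to 0.016 with library size alone and to 0.058 on log2 FPKM with either pseudocount. Insig2 turned to 0.045 with library size alone and to 0.011 and 0.0096 on FPKM with 1 and 0.1 added. Fdps turned to -0.0045 without control replicate 4 and to -0.0020 without tranilast replicate 4, within a range of -0.0045 to 0.029 over the libraries left out, but was called higher at 0.12 with library size alone and at 0.13 on FPKM. Ebp was called higher under the same alternatives (0.20 to 0.21), and Pmvk with library size alone (0.32) and without tranilast replicate 3 (0.34). Members called were 22 higher and 3 lower with library size alone and 21 and 3 on FPKM, and Srebf2 lost its call with upper-quartile factors (-0.03). Mvk lost its call with DESeq2 (0.17), with no filter (0.17) and without 5 of the 8 libraries. The median log2 fold change of the 27 genes was 0.34 with upper-quartile factors, 0.39 with library size alone, and 0.36 and 0.37 on FPKM with 1 and 0.1 added, while the median of all tested genes moved to 0.076, 0.125, 0.10 and 0.12, respectively, by nearly the same amount. The other pathway genes went from 21 higher and 21 lower to 35 and 12 with library size alone and to 33 and 8 on FPKM with either pseudocount, and the share of higher calls over all genes was 62.6% with upper-quartile factors and 70.4% on FPKM. When a log2 fold change of at least 1.5 in size was also required, 120 genes were left, with 0 members and 0 other pathway genes in either direction. With each library left out in turn, 5694 to 5909 genes were called, 18 to 20 members were higher and 4 lower, with a median of 0.263 to 0.288, and 20 to 21 other pathway genes were higher and 18 to 22 lower. Replicate numbers did not pair the libraries (correlations of the deviations of same-numbered libraries from -0.054 to 0.13, with 1 of 4 control libraries closest to its own number). With the replicate number as a block, 6009 genes, 18 higher members and 4 lower members were called, and Mvk was not (0.17). Depth limits Tm7sf2 most, at 30 to 67 counts per library.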
